A study of Homo sapiens with 13 samples.

Results

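Total RNA of K562 cells harvested 2 h into a uridine chase was compared with total RNA harvested at 1 h, over all human genes that passed a filter on low counts, which were 16255 of the 59204 gene IDs counted. The comparison used 4 of the 13 libraries of the series, 2 for each time. K562 is a human cell line from a chronic myeloid leukaemia, driven by the BCR-ABL1 kinase. Before both times the cells had been given 30 µM 4-thiouridine (4sU), a nucleoside that newly made RNA takes up in place of uridine, for 12 h with fresh medium every 3 h, and had then been washed in ice-cold buffer and moved to warm medium with 3 mM uridine. The 2 h group and the 1 h group differ in the time since that wash, and a group of 2 libraries taken at the wash (0 h) serves as the starting level. Later libraries (4, 8 and 12 h, 2 each) show where a level went next, and 1 library came from cells without 4sU. RNA was taken from cells in bulk, so fewer cells holding an RNA and less of it per cell cannot be told apart. The spread behind the p-values comes from a fit of all 13 libraries, not from the 4 compared alone. Whether the 2 replicates of a time were grown as separate cultures is not stated. The p-values therefore reflect only how far replicate libraries of the series differ from each other, which may be technical.

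When cells are disturbed by washing, fresh medium or serum, immediate early genes are transcribed from factors that are already present, without new protein. Many of them encode transcription factors (FOS, JUN, EGR1) or enzymes that switch off kinase signalling (DUSP1), and their mRNAs are made briefly and destroyed fast, in many cases through AU-rich elements in the 3' untranslated region (UTR). Delayed early genes follow once the products of the earlier wave have been translated. The hour from 1 h to 2 h is the step in which an early wave and a later one can overlap.

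The 2 h libraries held 14315013 and 13522741 counts and the 1 h libraries held 14501366 and 13769489 counts. Levels are in CPM, the read count scaled to the TMM-adjusted size of its library, and a gene is called higher or lower where edgeR's quasi-likelihood test gave a Benjamini-Hochberg adjusted p under 0.05 over all genes tested. Reads that the authors class as nascent, called labelled RNA in what follows, made up 32.9% ± 0.264 of all counts at 2 h and 34.7% ± 0.314 at 1 h (SD, n = 2 each). That difference of -1.82 percentage points had an exact permutation p of 0.333 (two-sided), the smallest that 2 against 2 libraries allow. The ratio of human to spike-in Drosophila counts was 13.5 ± 1.15 at 2 h and 13.0 ± 0.306 at 1 h (SD, n = 2 each; exact permutation p = 1.0). All 12 marker genes of the erythroid leukaemia line passed the filter. None of them was called (1.26% of all genes tested were higher at 2 h and 0.418% lower). All 12 had log2 fold changes below 0, with a median of -0.10 against -0.02 over all genes tested. This small shift is not particular to these markers. Of 84 cytosolic ribosomal protein genes 80 were below 0 and 4 above (median -0.10). Of 21 cytosolic heat shock genes 17 were below 0 and 4 above (median -0.10). Of the markers of other blood cells, 1 of 8 for megakaryocytes, 6 of 11 for granulocytes and monocytes and 4 of 12 for lymphocytes passed the filter, and none was called.

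More genes were higher than lower at 2 h. Of the genes tested, 205 were higher (1.26%) and 68 lower (0.418%), and 2133 had an unadjusted p under 0.05. The falls were deeper than the rises among genes that are well measured: FOS, DUSP1, EGR1 and the microRNA host transcript MIR23AHG all fell more than 3-fold, while the largest rise among genes with a mean of at least 5 CPM and a symbol, BUD13, was 2.42-fold. With the spike-in totals as library sizes the split was 314 higher and 33 lower, and with plain total counts 459 higher and 53 lower. The count of higher genes was 110 without replicate 1 of 2 h, 53 without replicate 2 of 2 h, 67 without replicate 1 of 1 h and 90 without replicate 2 of 1 h. In the same order the lower genes numbered 29, 28, 27 and 28. Of the calls, 36 higher and 17 lower genes were called in each of these 4 fits.

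**Figure D1:**
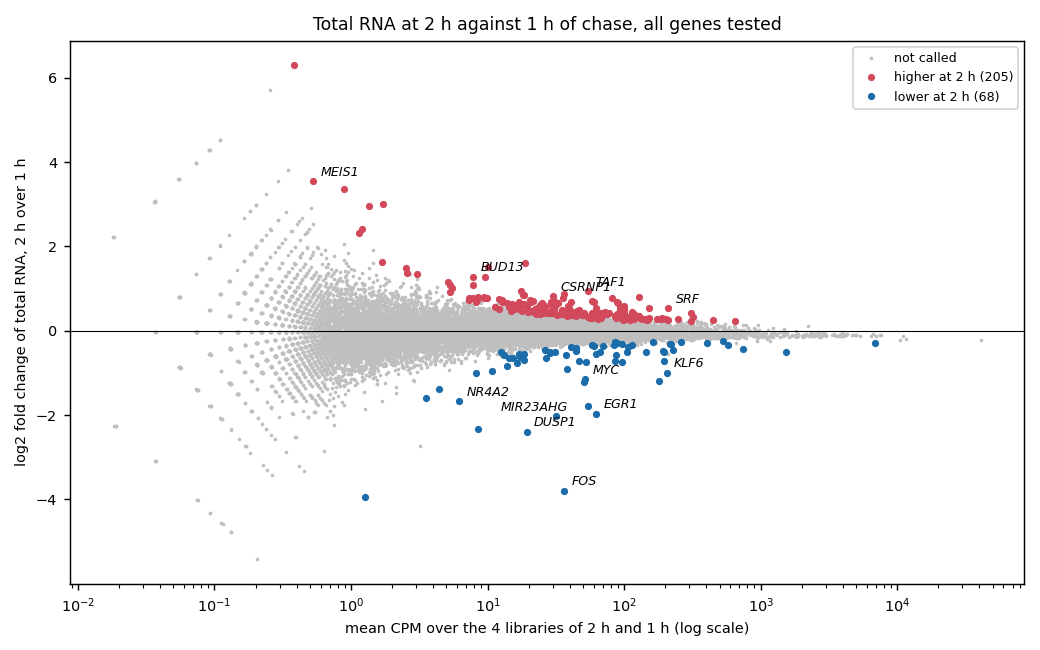
Log2 fold change of total RNA at 2 h over 1 h (vertical axis) against the mean CPM of the 4 libraries (horizontal log axis), 1 point per gene tested, with the 205 higher genes in red, the 68 lower genes in blue and the rest in grey. FOS, at a log2 fold change of -3.80, and DUSP1, at -2.39, lie far below the other genes of their level, while the called rises form a band close to the grey cloud.

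The calls of the hour before sort these changes. At 1 h against 0 h, 52 genes were higher (0.32% of those tested) and 6 lower (0.0369%). Of these 52, 12 were lower again at 2 h than at 1 h, 14 were higher still, and 26 were not called. The 2 steps share the 1 h libraries, so a chance high value at 1 h enters both with opposite signs. The 0 h levels are therefore given for the main genes. The test of 2 h against 0 h shares libraries with each step too, so it is not independent of either. The 12 genes that came back down were FOS, DUSP1, EGR1, MIR23AHG, NR4A2, KLF6, TMEM67, ARRDC3, OSR2, JUN, ZFP36L1 and the antisense transcript ENSG00000272256. At 2 h, 9 of them were still above their 0 h level by the same test (5.25% of all genes tested were higher at 2 h than at 0 h), and DUSP1, NR4A2 and ZFP36L1 were not called against 0 h.

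FOS encodes the c-Fos subunit of the AP-1 transcription factor (chr14:75278774-75282230, plus strand, GRCh38). It was at 4.56 and 5.22 CPM in the 2 h libraries, against 81.3 and 54.9 CPM in the 1 h libraries and 0.522 and 0.228 CPM at 0 h. Both 1 h libraries lay more than 10 times above both 2 h libraries. The log2 fold change from 1 h to 2 h was -3.80 ± 0.195 (SE), a 13.9-fold fall (adjusted p = 6.15e-13, edgeR), after a rise of 7.44 ± 0.316 in the hour before. At 4 h the 2 libraries held 1.51 and 0.619 CPM.

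DUSP1, a phosphatase that inactivates MAP kinases (chr5:172768090-172771195, minus strand), stood at 5.94 and 6.47 CPM at 2 h and at 36.5 and 28.7 CPM at 1 h. This was a 5.25-fold fall (log2 fold change -2.39 ± 0.207, adjusted p = 2.28e-08), to a level that was not called against its 0 h values of 8.46 and 6.39 CPM (log2 fold change 2 h over 0 h -0.26, adjusted p = 0.603). NR4A2, an orphan nuclear receptor, took the same course at a lower level. It had 2.75 and 3.16 CPM at 2 h, against 10.3 and 8.57 CPM at 1 h and 2.3 and 1.37 CPM at 0 h (log2 fold change 2 h over 1 h -1.67 ± 0.256, adjusted p = 0.00023).

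EGR1, a zinc finger transcription factor (chr5:138465490-138469315, plus strand), fell less far. Its level was 22.7 and 28.5 CPM at 2 h, against 95.1 and 105 CPM at 1 h and 7.21 and 8.91 CPM at 0 h. The fall was 3.9-fold (log2 fold change -1.96 ± 0.115, adjusted p = 7.56e-12), and every later library lay between 15.7 and 26.0 CPM, above both 0 h libraries. KLF6, a Krüppel-like factor, was at 137 and 136 CPM at 2 h, against 263 and 282 CPM at 1 h and 56.9 and 67.1 CPM at 0 h. Its log2 fold change was -0.995 ± 0.0872 (adjusted p = 2.28e-08), and it fell by a further 1.10 on the log2 scale from 2 h to 4 h.

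JUN, the partner of FOS in AP-1 (chr1:58780788-58784327, minus strand), showed a much smaller fall than FOS. It was at 65.0 and 66.3 CPM at 2 h, against 111 and 104 CPM at 1 h and 37.0 and 33.0 CPM at 0 h (log2 fold change -0.71 ± 0.104, adjusted p = 0.000133). ZFP36L1, which encodes a protein that binds AU-rich elements and promotes mRNA decay, was at 65.5 and 73.9 CPM at 2 h and at 106 and 103 CPM at 1 h (log2 fold change -0.58 ± 0.101, adjusted p = 0.00127). Without replicate 1 of either time its adjusted p was above 0.05, at up to 0.104, while FOS, DUSP1, EGR1, NR4A2, KLF6 and JUN were called in all 4 fits that left out 1 library.

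Other members of the same families were not called in this hour. FOSB, a relative of FOS, was at 47.4 and 41.5 CPM at 2 h and at 60 and 49.6 CPM at 1 h, after 0.836 and 0.799 CPM at 0 h. Its log2 fold change of -0.30 ± 0.141 was not called (adjusted p = 0.357). FOSB then stood at 12.5 and 7.34 CPM at 4 h, a fall of 2.14 ± 0.167 on the log2 scale from 2 h. JUNB, another Jun protein gene, had 27.7 and 25.7 CPM at 2 h and 31.2 and 34.0 CPM at 1 h and was not called either (log2 fold change -0.29 ± 0.101, adjusted p = 0.179). JUND, the third Jun protein gene, was at 183 and 176 CPM at 2 h and at 174 and 157 CPM at 1 h, and fell by 0.54 ± 0.0718 on the log2 scale from 2 h to 4 h. These are 3 of the 26 genes that were higher at 1 h than at 0 h and not called from 1 h to 2 h, of which 22 were still above their 0 h level at 2 h. Others were WEE1, a kinase that holds back mitosis (105 and 102 CPM at 2 h, against 94.8 and 95.8 CPM at 1 h), and NEAT1, the RNA scaffold of nuclear paraspeckles (154 and 178 CPM at 2 h, against 158 and 194 CPM at 1 h). WEE1 fell by 0.88 ± 0.0912 on the log2 scale from 2 h to 4 h. FOSB, JUND, WEE1 and NEAT1 were named after their values were seen. The 4 h libraries differ from each other in spike-in composition, with replicate 1 on the side of all libraries up to 2 h and replicate 2 on the side of the 8 h and 12 h libraries, and the part of this in the values at 4 h was not tested.

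Among the remaining genes that rose and came down, MIR23AHG, the host transcript of the miR-23a cluster, was at 25.9 and 22.8 CPM at 2 h, against 95.2 and 72.8 CPM at 1 h and 4.18 and 4.57 CPM at 0 h. This 3.45-fold fall (log2 fold change -1.79 ± 0.119, adjusted p = 8.16e-11) left it 5.57-fold above 0 h. ARRDC3, an arrestin-domain protein gene, was at 38.8 and 39.9 CPM at 2 h and at 67.3 and 65.2 CPM at 1 h (log2 fold change -0.75 ± 0.0882). TMEM67, a ciliary membrane protein gene, had 7.31 and 7.28 CPM at 2 h and 15.8 and 12.5 CPM at 1 h, and its call was lost in all 4 fits without 1 library (adjusted p 0.0693 to 0.355). OSR2, a transcription factor gene named after its values were seen, was at 39.7 and 30.7 CPM at 2 h, against 62.8 and 53.6 CPM at 1 h and 5.43 and 4.57 CPM at 0 h; without replicate 1 of 1 h or replicate 2 of 2 h it was not called (adjusted p up to 0.102). ENSG00000272256 stayed under 6 CPM in every library and lost its call in 3 of the 4 fits (adjusted p up to 0.236 without 1 h replicate 1, 1 h replicate 2 or 2 h replicate 2).

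**Figure D2:**
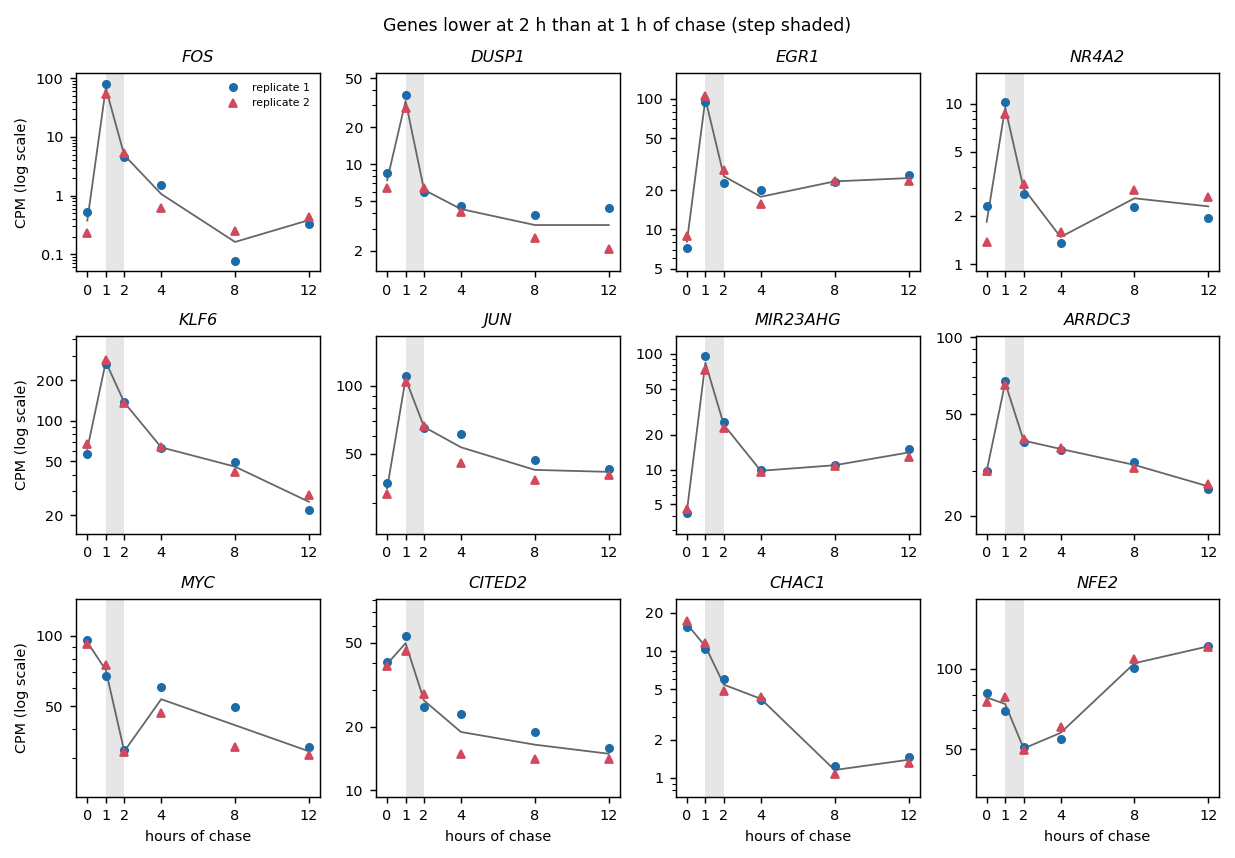
Level of 12 genes that were lower at 2 h than at 1 h (vertical log axis, CPM, a separate scale for each gene) against hours of chase, with circles for replicate 1, triangles for replicate 2 and a line through the mean of both; the step from 1 h to 2 h is shaded. FOS, DUSP1 and NR4A2 come back towards their 0 h level by 4 h, EGR1 levels off above it, and MYC and CHAC1 were already lower at 1 h than at 0 h in both replicates.

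AU-rich elements lie in several of these transcripts. The letters TATTTAT, the DNA form of a core AU-rich element, were searched on the sense strand of the 3' UTR of the longest coding transcript of each gene (GENCODE 29, GRCh38). The first such site is printed with 10 bases on either side for 5 genes that were lower at 2 h and 3 that were higher (SRF, CSRNP1 and PER1), with the 7 letters searched in capitals, since both kinds of gene hold it.
FOS: gtttttaattTATTTATtaagatggat
DUSP1: ggctggtcctTATTTATttaacttcac
NR4A2: attttgtgccTATTTATgaataaatat
KLF6: atgtttctctTATTTATgccttgagga
JUN: tgcttatgaaTATTTATaacagcattc
SRF: tggcaccactTATTTATtgttgccttt
CSRNP1: tctctggattTATTTATttgttttaac
PER1: gggctgcactTATTTATtgcggggaga
FOS holds 2 such sites in a 3' UTR of 806 bases, DUSP1 holds 3 in 672 bases, and SRF holds 2 in 2317 bases. Of the 10 coding genes that rose and came down, 70.0% held at least 1 site. The share was 37.8% of the lower genes with a 3' UTR (n = 45), 36.5% of the higher genes (n = 181) and 30.0% of all genes tested. Per kilobase of 3' UTR the lower genes had 0.822 sites, the higher genes 0.367 and all genes tested 0.319. EGR1, CITED2, ARRDC3, IER2 and JUNB have no such letters in this 3' UTR.

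A different set of early genes went on rising. The 14 genes that were higher at 1 h than at 0 h and higher again at 2 h included CSRNP1, SRF, IER2, PPP1R15A, PHC3, BMS1, FUBP1, NGDN, RFWD3, TLE3, LRPPRC, NSUN2 and USP7. All 14 were above their 0 h level at 2 h, which follows from how they were chosen. BMS1 shares sequence with pseudogene copies, so its count is uncertain. The log2 fold changes of the 14 genes from 1 h to 2 h ranged from 0.27 to 0.82 (median 0.47). Without 1 library 7 of them kept their call in all 4 fits, among them CSRNP1, SRF, BMS1, FUBP1, NGDN and RFWD3. PHC3 was lost without replicate 2 of 2 h (adjusted p = 0.0872), and TLE3 without that library or either library of 1 h (adjusted p up to 0.31). LRPPRC, NSUN2 and USP7 were lost in all 4 fits (adjusted p 0.0535 to 0.248 for LRPPRC, 0.0906 to 0.431 for NSUN2 and 0.0969 to 0.298 for USP7).

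CSRNP1, a nuclear protein induced by AXIN1 (chr3:39141855-39154562, minus strand), was at 36.8 and 40.2 CPM at 2 h, against 21.1 and 22.5 CPM at 1 h and 11.6 and 10.8 CPM at 0 h. The libraries of the 3 times do not overlap, and the change from 1 h to 2 h was 0.82 ± 0.108 on the log2 scale (adjusted p = 3.02e-05). SRF, the serum response factor that binds the CArG boxes of early genes (chr6:43171299-43181507, plus strand), was at 241 and 256 CPM at 2 h, against 165 and 180.0 CPM at 1 h and 122 and 118 CPM at 0 h (log2 fold change 0.53 ± 0.0671, adjusted p = 1.93e-05). It then stayed between 283 and 324 CPM up to 12 h.

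Smaller rises were those of IER2 and PPP1R15A. IER2, an early nuclear protein, was at 345 and 363 CPM at 2 h and at 271 and 294 CPM at 1 h (log2 fold change 0.33 ± 0.069, adjusted p = 0.00936). PPP1R15A, the regulatory subunit that directs phosphatase to the translation factor eIF2α, was at 166 and 172 CPM at 2 h and at 136 and 137 CPM at 1 h (log2 fold change 0.31 ± 0.0657, adjusted p = 0.00979). Both calls were lost without replicate 1 of 1 h or replicate 2 of 2 h, and that of PPP1R15A also without replicate 2 of 1 h, with adjusted p-values up to 0.166 for IER2 and 0.146 for PPP1R15A.

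Promoter windows (250 bases before to 50 after the start, RefSeq, GRCh38.p14) are printed for 2 pairs of genes that carry the same letters and moved in opposite directions. EGR1, lower at 2 h, and SRF, higher at 2 h, each hold 2 CArG boxes, the binding motif of SRF. DUSP1, lower, and MAFF, higher, each hold 1 TGACGTCA, the cyclic AMP response element, and 1 CACGTG, the E-box of MYC-like and clock factors. Motifs, searched on both strands, are in capitals and do not overlap. The windows are chr5:138465229-138465528 (plus strand) for EGR1, chr6:43171019-43171318 (plus strand) for SRF, chr5:172771146-172771445 (minus strand) for DUSP1 and chr22:38201744-38202043 (plus strand) for MAFF.
EGR1: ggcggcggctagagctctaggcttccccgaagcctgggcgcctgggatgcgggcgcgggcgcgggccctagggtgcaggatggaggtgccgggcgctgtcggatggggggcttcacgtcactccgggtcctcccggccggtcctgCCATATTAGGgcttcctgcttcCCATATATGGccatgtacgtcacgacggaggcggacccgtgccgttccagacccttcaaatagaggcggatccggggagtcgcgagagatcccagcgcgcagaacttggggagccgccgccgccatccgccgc
SRF: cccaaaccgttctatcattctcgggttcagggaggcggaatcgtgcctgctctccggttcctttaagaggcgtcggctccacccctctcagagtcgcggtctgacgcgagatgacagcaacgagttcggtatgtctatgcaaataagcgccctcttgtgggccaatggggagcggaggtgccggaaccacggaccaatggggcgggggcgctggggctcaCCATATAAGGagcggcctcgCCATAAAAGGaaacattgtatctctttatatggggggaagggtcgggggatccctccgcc
DUSP1: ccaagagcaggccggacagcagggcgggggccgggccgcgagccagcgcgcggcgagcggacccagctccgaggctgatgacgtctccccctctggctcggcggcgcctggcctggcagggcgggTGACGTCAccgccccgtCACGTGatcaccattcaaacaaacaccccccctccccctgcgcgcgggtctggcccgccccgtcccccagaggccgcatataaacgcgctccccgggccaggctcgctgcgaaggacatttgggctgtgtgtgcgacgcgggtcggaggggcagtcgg
MAFF: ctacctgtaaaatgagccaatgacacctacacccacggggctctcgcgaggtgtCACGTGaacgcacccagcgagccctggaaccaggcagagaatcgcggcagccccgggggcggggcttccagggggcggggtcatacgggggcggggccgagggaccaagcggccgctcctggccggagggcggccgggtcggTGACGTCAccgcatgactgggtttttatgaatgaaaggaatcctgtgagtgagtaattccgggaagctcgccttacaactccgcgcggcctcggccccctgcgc
A CArG box was found in 2.78% of the promoters of lower genes (n = 36), which is 1 promoter, that of EGR1. It was found in 1.9% of those of higher genes (3 of 158), in 0.98% of those of all genes tested and in 1.29% of all promoters in the table. TGACGTCA was found in 2.78% of the lower (1 promoter, that of DUSP1), 8.23% of the higher, 3.44% of all tested and 1.85% of all promoters. CACGTG was found in 16.7%, 13.9%, 10.4% and 7.26% of the same sets. TGANTCA, the AP-1 site, was found in 0 of the 36 lower promoters, 5.06% of the higher, 4.37% of all tested and 7.71% of all promoters. A match is a match of letters and not a bound site, and bases outside these windows were not searched.

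Most rises were in genes that had not been called in the hour before. These were 189 of the 205 higher genes, 167 of them protein-coding (70.8% of all genes tested were protein-coding). At 2 h 164 of the 189 were above their 0 h level (5.25% of all genes tested), but the same 2 h libraries chose these genes. From 2 h to 4 h, 75 of the 189 rose further and 15 fell back (over all genes tested 7.35% were higher and 5.88% lower at 4 h than at 2 h).

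TAF1, the largest subunit of the TFIID complex that starts transcription by RNA polymerase II (chrX:71366239-71532374, plus strand), was at 69.5 and 74.8 CPM at 2 h, against 35.7 and 39.3 CPM at 1 h and 27.9 and 30.7 CPM at 0 h. Its log2 fold change of 0.94 ± 0.117 (adjusted p = 1.49e-05) was followed by a further 0.69 ± 0.109 up to 4 h, when it stood at 120.0 and 113 CPM. RALGDS, an exchange factor for Ral GTPases that acts below RAS, was at 46.4 and 46.6 CPM at 2 h and at 26.7 and 24.5 CPM at 1 h (log2 fold change 0.86 ± 0.102, adjusted p = 7.05e-06). ADGRE5, the adhesion receptor CD97, was at 23.8 and 22.9 CPM at 2 h and at 11.7 and 12.5 CPM at 1 h (log2 fold change 0.95 ± 0.127), and reached 46.9 and 38.0 CPM at 12 h. In all 3 genes both 2 h libraries lay well above both 1 h libraries, and all later libraries stayed above the 1 h level.

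Other genes, namely RPS6KA5, BBC3 and MAFF, peaked at 2 h. RPS6KA5, the kinase MSK1 that phosphorylates histone H3 and CREB below MAP kinases, was at 12.5 and 14.5 CPM at 2 h, against 5.79 and 5.43 CPM at 1 h, and was at 6.12 and 5.04 CPM at 4 h (log2 fold change 2 h over 1 h 1.27 ± 0.195, adjusted p = 0.000257). BBC3, the BCL2-family killer protein PUMA, was at 104 and 114 CPM at 2 h and at 68.5 and 68.2 CPM at 1 h (log2 fold change 0.68 ± 0.0862, adjusted p = 2.15e-05), and fell by 0.56 on the log2 scale by 4 h. MAFF, a small Maf transcription factor, was at 20.9 and 21.1 CPM at 2 h, against 13.7 and 12.6 CPM at 1 h, and at 10.4 and 8.58 CPM at 4 h. Its log2 fold change of 0.67 ± 0.154 (adjusted p = 0.0179) was not called in any of the 4 fits without 1 library, where it lay between 0.63 and 0.76. Its relative MAFK was at 48.5 and 51.6 CPM at 2 h and at 31.2 and 30.7 CPM at 1 h (log2 fold change 0.69 ± 0.0994), and kept its call in all 4.

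PER1 and PER2, period genes of the circadian clock that serum is known to induce in cultured cells, were both higher. PER1 was at 24.0 and 23.4 CPM at 2 h and at 13.9 and 12.4 CPM at 1 h (log2 fold change 0.85 ± 0.12, adjusted p = 8.91e-05). PER2 was at 11.3 and 13.8 CPM at 2 h and at 6.52 and 8.11 CPM at 1 h (log2 fold change 0.78 ± 0.177, adjusted p = 0.0172). The PER2 call was lost without replicate 1 of 1 h or replicate 2 of 2 h (adjusted p up to 0.311). They were the only 2 called of 14 tested members of the list of serum-responsive clock genes (14.3%, against 1.26% higher among all genes tested), whose median log2 fold change was 0.16, against -0.02 over all genes tested.

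Further rises by the rule for named genes were those of TACC1, a centrosomal coiled-coil protein (23.3 and 23.6 CPM at 2 h, against 13.1 and 13.0 CPM at 1 h), and PIM3, a serine/threonine kinase (111 and 123 CPM at 2 h, against 80.0 and 82.9 CPM at 1 h). Both kept their call in all 4 fits without 1 library. The rise of BUD13, a splicing factor (9.56 and 12.6 CPM at 2 h, against 3.96 and 5.2 CPM at 1 h), was lost without replicate 1 of 1 h or replicate 2 of 2 h (adjusted p up to 0.107). LINC01355, a long non-coding RNA, was at 11 and 10.4 CPM at 2 h and at 5.57 and 4.44 CPM at 1 h, and was lost without replicate 2 of 1 h (adjusted p = 0.102). DUSP8, a phosphatase of the same family as DUSP1, had 7.03 and 6.84 CPM at 2 h and 3.3 and 3.98 CPM at 1 h, with no call in any of the 4 fits (adjusted p 0.126 to 0.329). MEIS1, a homeobox factor of blood stem cells, had the largest rise of the named genes but rested on 13 and 14 reads at 2 h and 1 and 1 read at 1 h. It was not called in any of the 4 fits without 1 library (adjusted p 0.0729 to 0.19).

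**Figure D3:**
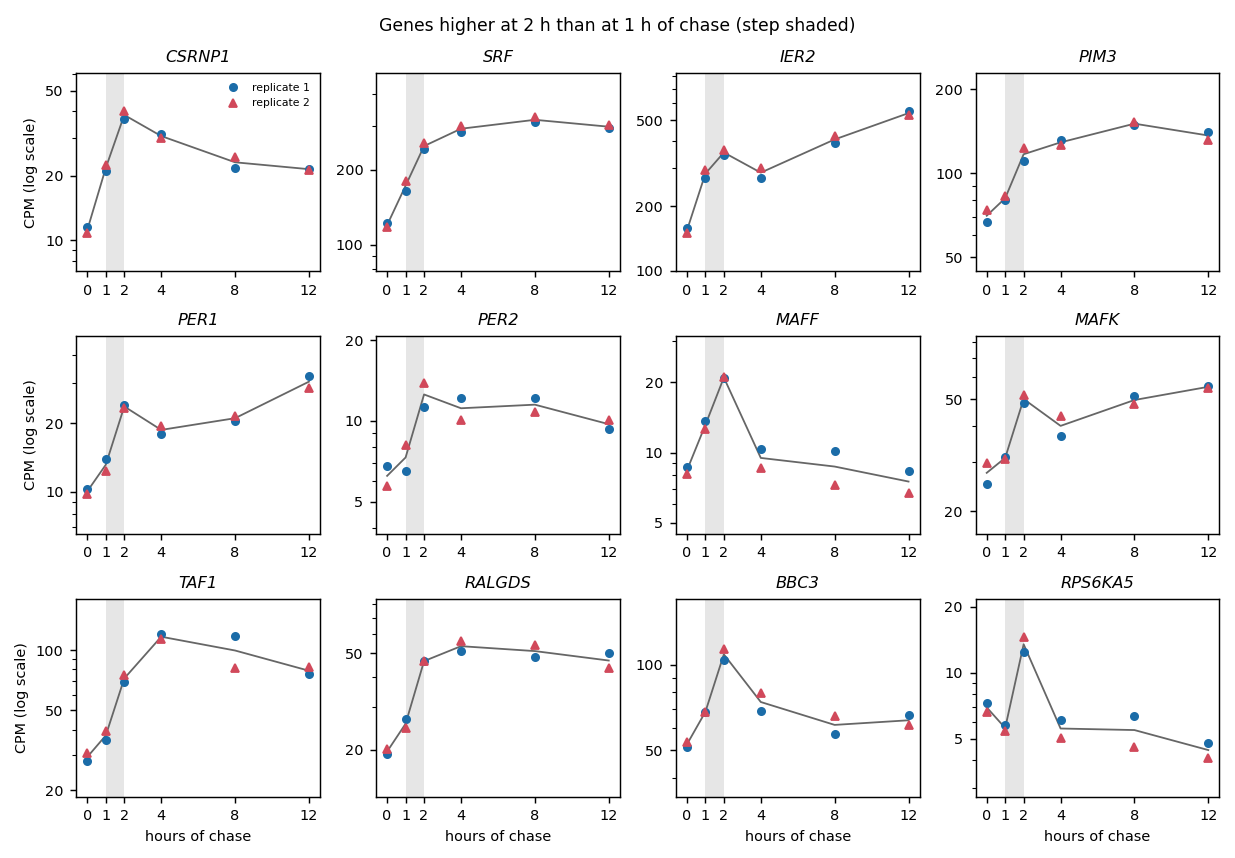
Level of 12 genes that were higher at 2 h than at 1 h (vertical log axis, CPM, a separate scale for each gene) against hours of chase, with circles for replicate 1, triangles for replicate 2 and a line through the mean of both; the step from 1 h to 2 h is shaded. MAFF, BBC3 and RPS6KA5 have their highest level at 2 h, while TAF1, SRF and IER2 are higher at later times.

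Genes that fell without having been called in the hour before numbered 56, of which 37 were protein-coding (70.8% of all genes tested were protein-coding). At 2 h 49 of the 56 were below their 0 h level (1.73% of all genes tested), but the same 2 h libraries chose these genes. MYC, the growth-promoting transcription factor, was one of them. It was at 32.4 and 31.9 CPM at 2 h, against 67.7 and 75.1 CPM at 1 h and 96.0 and 92.2 CPM at 0 h. The log2 fold change from 1 h to 2 h was -1.15 ± 0.125 (adjusted p = 1.62e-06), and from 2 h to 4 h MYC rose by 0.74 ± 0.128 to 60.3 and 47.0 CPM. MXD1, which competes with MYC for their shared partner MAX, was at 29.2 and 32.6 CPM at 2 h and at 22.4 and 22.5 CPM at 1 h (log2 fold change 0.46 ± 0.115, adjusted p = 0.035), and was not called in any of the 4 fits without 1 library (adjusted p 0.0586 to 0.373).

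CHAC1, a glutathione-degrading enzyme of the integrated stress response, was at 6.01 and 4.85 CPM at 2 h, against 10.3 and 11.5 CPM at 1 h and 15.4 and 17.2 CPM at 0 h (log2 fold change -1.003 ± 0.196, adjusted p = 0.00466). CITED2, a partner of the coactivators CBP and p300, was at 24.8 and 28.5 CPM at 2 h and at 54.0 and 45.7 CPM at 1 h (log2 fold change -0.90 ± 0.142, adjusted p = 0.000328). FGF18, a fibroblast growth factor, was at 9.34 and 10.6 CPM at 2 h and at 19.4 and 16.2 CPM at 1 h (log2 fold change -0.84 ± 0.16, adjusted p = 0.0038). These 3 fell in both replicates, but each lost its call in 2 of the 4 fits without 1 library. The adjusted p reached 0.146 for CHAC1 (without replicate 2 of either time), and to 0.0573 for CITED2 and 0.156 for FGF18 (without replicate 1 of either time).

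Of 26 haematopoietic transcription factors tested, NFE2 was lower (3.85%, against 0.418% of all genes tested) and CEBPB and MEIS1 were higher (7.69%, against 1.26%). NFE2, a transcription factor of erythroid and megakaryocytic genes, was at 50.8 and 49.9 CPM at 2 h, against 69.6 and 78.2 CPM at 1 h, and stood at 122 and 121 CPM at 12 h (log2 fold change 2 h over 1 h -0.55 ± 0.0832, adjusted p = 0.000188). CEBPB, a factor of myeloid differentiation, was at 87.0 and 91.3 CPM at 2 h and at 69.7 and 64.0 CPM at 1 h (log2 fold change 0.41 ± 0.107, adjusted p = 0.0443), and lost its call in all 4 fits without 1 library (adjusted p 0.135 to 0.346). CISH, a feedback inhibitor of cytokine signalling that STAT5 induces, was at 22.2 and 25.2 CPM at 2 h and at 33.9 and 33.3 CPM at 1 h (log2 fold change -0.50 ± 0.11, adjusted p = 0.0132), with no call in the 4 fits without 1 library (adjusted p 0.0529 to 0.233). GATA1, the master regulator of the erythroid lineage, was at 85.0 and 76.9 CPM at 2 h and at 83.1 and 80.2 CPM at 1 h, and was not called (log2 fold change -0.01 ± 0.0788). MYB, a factor of blood progenitors, was at 130 and 135 CPM at 2 h and at 141 and 152 CPM at 1 h (log2 fold change -0.14 ± 0.0685, adjusted p = 0.371). TXNIP, a thioredoxin-binding protein that limits glucose uptake, was at 163 and 161 CPM at 2 h and at 219 and 237 CPM at 1 h (log2 fold change -0.49 ± 0.0773, adjusted p = 0.000318), and it kept its call in all 4 fits, as did NFE2 and MYC.

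A few deep falls are of uncertain identity. RPLP1P6, a pseudogene of a ribosomal protein, was at 13.6 and 11.8 CPM at 2 h and at 56.1 and 46.2 CPM at 1 h (log2 fold change -2.01 ± 0.134, adjusted p = 8.16e-11). RPL35AP4, another such copy, was at 31.7 and 29.2 CPM at 2 h and at 110.0 and 31.9 CPM at 1 h, so that replicate 1 of 1 h decides the value. Without that library its log2 fold change was -0.05 (adjusted p = 0.961). Of the 68 lower genes 13 are annotated pseudogenes, against 5 of the 205 higher genes and 2267 of all 16255 genes tested. Reads of near-identical copies can be assigned to the wrong one.

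Because the hour before was read in the same 1 h libraries, genes were also chosen in one replicate and read in the other. With a rise of at least 2-fold from 0 h to 1 h and at least 10 CPM at the higher time, 16 genes were chosen in replicate 1 (0.5 CPM was added before each ratio). In replicate 2, 13 of them were lower at 2 h than at 1 h, with a median log2 ratio of -0.77. Of the 16, 6 were at least 2-fold lower. Over all 8138 genes 4306 were lower, 10 were at least 2-fold lower, and the median was -0.01. Chosen in replicate 2 and read in replicate 1, 11 of 14 genes were lower, with a median of -0.78. Of these 14, 5 were at least 2-fold lower. Over all 8178 genes read in replicate 1, 4150 were lower and 16 at least 2-fold lower, with a median of -0.003. The genes chosen by both replicates were FOS, DUSP1, EGR1, KLF6, JUN, MIR23AHG, ARRDC3, OSR2, TMEM67, FOSB, IDS and TRIB1. Of these, FOSB, IDS and TRIB1 are not among the 12 genes called higher at 1 h and then lower at 2 h. With a rise of only 1.5-fold as the choice the medians were -0.027 and 0.10.

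Labelled and unlabelled reads were tested apart, each against the size of the total library. Since the 2 parts add up to the total, they say where a change lies and are no further evidence of it. Over 12388 genes tested, labelled RNA was lower at 2 h for 590 (4.76%) and higher for 1 (0.00807%), which was TAF1, with a median log2 fold change of -0.16. Over 12994 genes tested, unlabelled RNA was higher for 2821 (21.7%) and lower for 173 (1.33%), with a median of 0.18. The 4 fits that each left out 1 library gave 187 to 240 genes with lower labelled RNA and 0 to 1 with higher labelled RNA. They gave 1731 (without replicate 2 of 2 h) to 2073 with higher unlabelled RNA, and 55 (without replicate 1 of 1 h) to 131 with lower unlabelled RNA. The 1 gene with higher labelled RNA was not called without replicate 1 of 1 h.

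In the genes that rose and came down, both parts fell. Unlabelled RNA was lower for all 12, and labelled RNA for 10 of the 11 that could be tested. FOS had 1.81 and 2.28 CPM of labelled RNA at 2 h, against 35.2 and 26.2 CPM at 1 h, and 2.75 and 2.94 CPM of unlabelled RNA at 2 h, against 46.1 and 28.7 CPM at 1 h. The labelled share of FOS reads was 39.7% and 43.7% at 2 h and 43.3% and 47.8% at 1 h, after a rise that took place in medium without added 4sU. The labelled share of EGR1 was 29.7% and 26.0% at 2 h and 42.1% and 37.0% at 1 h.

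For MYC the fall was called in labelled RNA and not in unlabelled RNA. Labelled MYC RNA was at 16.2 and 16.3 CPM at 2 h and at 49.8 and 56.0 CPM at 1 h (log2 fold change -1.71 ± 0.115, adjusted p = 2.37e-25), while unlabelled MYC RNA was at 16.3 and 15.7 CPM at 2 h and at 17.8 and 19.1 CPM at 1 h and was not called (log2 fold change -0.21 ± 0.172, adjusted p = 0.432). CISH had parts that moved in opposite directions, with labelled RNA at a log2 fold change of -1.38 ± 0.156 and unlabelled RNA at 0.52 ± 0.148 (adjusted p = 0.0141). NFE2 fell in both parts, by 0.56 on the log2 scale in labelled RNA (adjusted p = 0.000925) and 0.55 in unlabelled RNA (adjusted p = 0.000312).

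In the higher genes the change lay in unlabelled RNA, which was higher for 202 of the 205, while labelled RNA was lower for 4 and higher for TAF1. SRF had 153 and 163 CPM of unlabelled RNA at 2 h, against 83.3 and 93.9 CPM at 1 h, and 88.9 and 92.4 CPM of labelled RNA at 2 h, against 81.5 and 85.6 CPM at 1 h. TAF1 had 37.7 and 39.6 CPM of labelled RNA at 2 h, against 22.9 and 28.2 CPM at 1 h (log2 fold change 0.60 ± 0.118, adjusted p = 0.000239). Its labelled share was 54.3% and 53% at 2 h and 64.3% and 71.8% at 1 h.

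**Figure D4:**
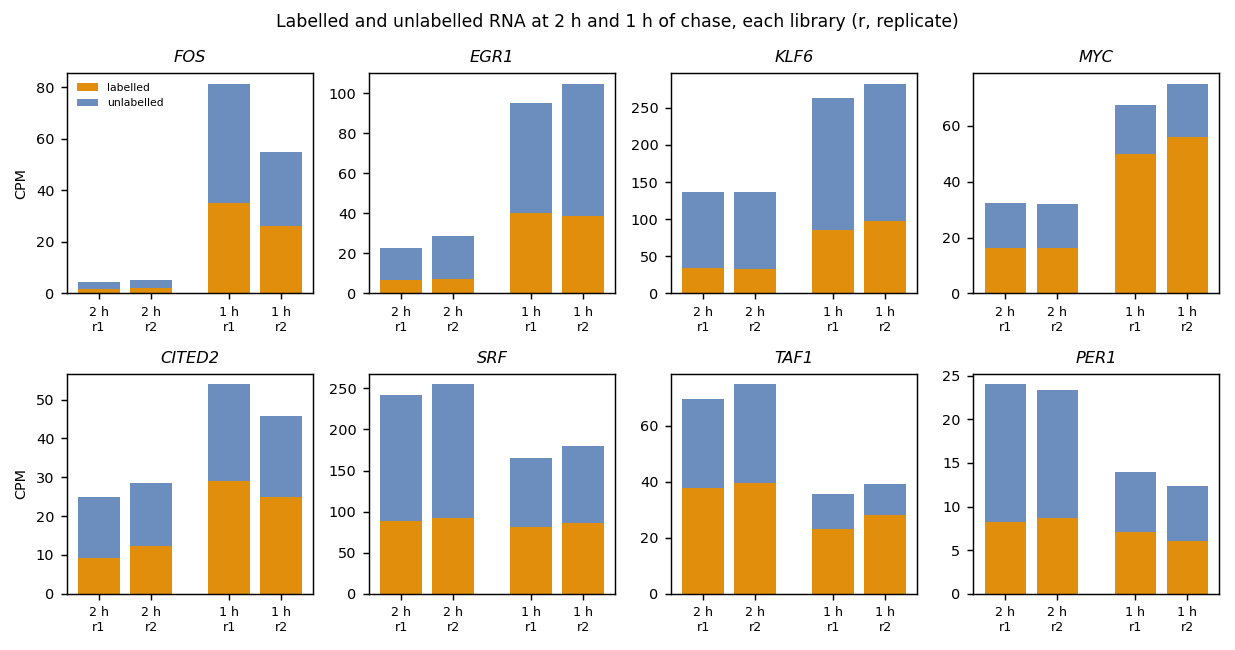
Labelled (orange) and unlabelled (blue) RNA stacked to the total level (vertical axis, CPM) in each of the 2 libraries of 2 h (left pair) and 1 h (right pair) for 8 genes. Both parts are smaller at 2 h for FOS, EGR1 and KLF6, the labelled part makes most of the fall of MYC, and the unlabelled part makes most of the rise of SRF and PER1.

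Read by gene list, the immediate early genes had the largest shares of calls. Of the 47 immediate early genes 37 were tested; 9 were lower (FOS, DUSP1, EGR1, NR4A2, MYC, KLF6, CITED2, JUN and ZFP36L1) and 7 higher (CSRNP1, SRF, IER3, NFKBIA, IER2, PPP1R15A and MIDN). These are shares of 24.3% and 18.9%, against 0.418% and 1.26% of all genes tested, and the list's median log2 fold change was -0.07. IER3, a survival protein, was at 42.3 and 40.0 CPM at 2 h and at 29.6 and 29.6 CPM at 1 h; NFKBIA, the inhibitor of NF-κB, was at 51.0 and 44.6 CPM at 2 h and at 32.8 and 37.6 CPM at 1 h. MIDN, midnolin, was at 271 and 276 CPM at 2 h and at 226 and 228 CPM at 1 h. Without 1 library the list had 3 to 5 higher members, 3 without replicate 1 of 1 h or replicate 2 of 2 h, 4 without replicate 2 of 1 h and 5 without replicate 1 of 2 h. IER3 was lost without the last of these (adjusted p = 0.051), MIDN without any of the other three (adjusted p up to 0.178), and NFKBIA in all 4 fits (adjusted p 0.0584 to 0.324). MCL1, a survival gene of the BCL2 family, was at 202 and 204 CPM at 2 h and at 167 and 177 CPM at 1 h and was not called (log2 fold change 0.24 ± 0.0754, adjusted p = 0.122).

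Of 38 delayed early and MAP kinase feedback genes tested, 3 were higher (7.89%), among them MAFF and MAFK, and TNFAIP3, an inhibitor of NF-κB signalling, was lower (13.9 and 13.4 CPM at 2 h, against 19.7 and 20.4 CPM at 1 h; adjusted p = 0.0396, and 0.186 to 0.307 without 1 library). The list's median was 0.12. No member was called of 27 cytoskeletal targets of SRF, 84 cytosolic ribosomal protein genes or 39 erythroid and globin genes; at shares of 1.26% higher and 0.418% lower among all genes tested, a count of 0 in lists of these sizes is close to the background. Of 32 G1/S genes E2F1 and E2F3 were higher (6.25%), by 0.40 each on the log2 scale. E2F1 was called in none of the 4 fits without 1 library (adjusted p 0.0742 to 0.304) and E2F3 in 1 of them (adjusted p up to 0.548). GAPDH, a glycolytic enzyme used as a steady reference, was at 2905 and 2616 CPM at 2 h and at 2950.0 and 2754 CPM at 1 h (log2 fold change -0.05 ± 0.0688).

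**Figure D5:**
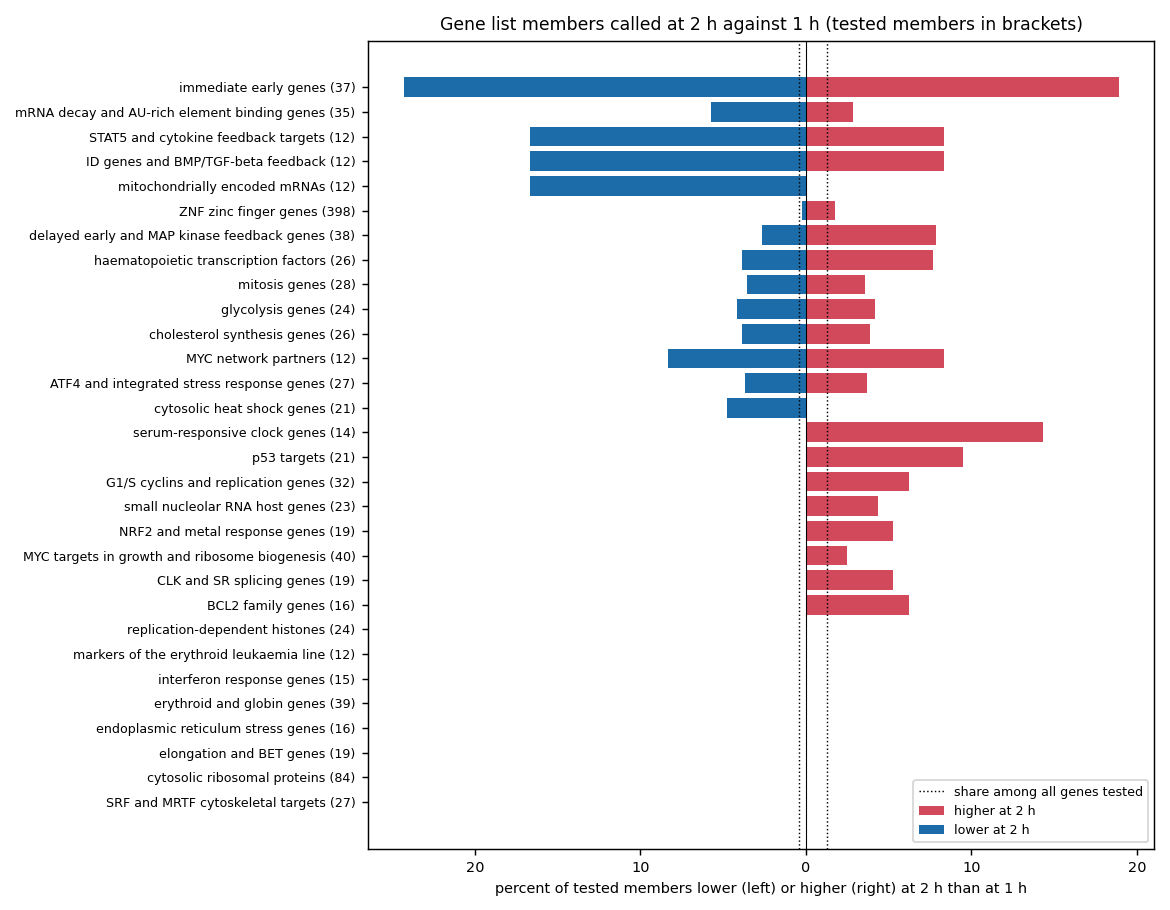
Percent of the tested members of each gene list with at least 10 tested members (number in brackets) that were lower (blue, to the left) or higher (red, to the right) at 2 h than at 1 h, with dotted lines at the share among all genes tested. The immediate early list has both the longest lower bar, 24.3%, and the longest higher bar, 18.9%.

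The span and intron number of a gene played no part in the tests. The 47 lower protein-coding genes span a median of 8416 bases with 3 introns, against 40481 bases and 9 introns for the 181 higher ones and 30433 bases and 7 introns for all protein-coding genes tested. The 14 genes that rose in both hours span a median of 42315 bases with 12 introns, and the coding genes that rose and came down span 8148 bases with 3 introns. The median level was 53.5 CPM for the lower, 38.3 CPM for the higher and 9.45 CPM for all genes tested, so both sets lie above the typical level. These medians are descriptions of sets chosen by the test, with no test of their own.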

How the data were processed

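The authors deposited 3 tables of counts per gene, for all reads, for reads classed as nascent (labelled) and for the Drosophila spike-in, from 3' end sequencing (QuantSeq) of RNA treated with iodoacetamide, with 5% fly cells added, per the labels' protocols. Builds hg38 (human) and dm6 (fly), trimming with Trim Galore 0.6.5, bcl2fastq 2.17.1.14 and also bedtools appear in the submitters' processing notes. Not given in the sources used here are the rule for a labelled read, strand use, annotation, counter and aligner. Without stated strand, reads of a gene and of an overlapping antisense gene cannot be told apart. Gene names were matched by ID, and 3366 of 59204 IDs had no match.

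The raw counts of all 13 libraries were fitted together in edgeR 4.0.16 (R 4.3.3) with 7 groups, TMM scaling, the filterByExpr filter and the quasi-likelihood F-test, adjusted by Benjamini-Hochberg over the 16255 genes tested. Every adjusted p is from this test, and ± beside a log2 fold change is its SE. Unlabelled counts are total minus labelled counts; both parts were fitted with the TMM-scaled total library sizes where at least 2 of the 4 libraries held 10 counts. Replicate pairs differed by more than counting noise (chi-square over degrees of freedom 3.14 to 6.16), so no library was a repeat deposit. Same-numbered libraries deviated together in 5 of 15 pairs of times (correlation over 0.1). The times up to 2 h were among these (0.264 for 0 h and 1 h, 0.198 for 0 h and 2 h, 0.137 for 2 h and 1 h). As most pairs of times did not pass, the numbers were not taken as pairs in the main fit, and a replicate block was fitted as an alternative. The scripts were tested on simulated data.

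Named genes are the 12 largest rises and 12 largest falls (mean of at least 5 CPM, with a symbol, no overlap between times), up to 3 called members per direction of each list with called early genes in full, 12 set genes (FOS, JUN, JUNB, EGR1, IER2, DUSP1, KLF6, MYC, MCL1, GATA1, MYB and GAPDH) and the 8 largest rises and falls among genes not called in the hour before or called there in the other direction. Genes listed to complete a class fall outside that rule, as do FOSB, JUND, WEE1, NEAT1 and OSR2, which were picked with their values known; 1 gene that the rule names is not reported here. The comparison, its members and all 34 gene lists were chosen with earlier results of these data known. Alternatives were other scalings, filters, sample sets, DESeq2 1.42.0, a replicate block and leaving out each library. Figures were drawn with matplotlib 3.10.9.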

Additional observations from a re-analysis of the deposited data

How the results depend on the processing

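Against 205 higher and 68 lower genes, the counts were 314 and 33 with spike-in totals as library sizes, 459 higher with total counts, 321 higher with no filter on low counts, 544 and 227 with the 4 libraries of 1 and 2 h alone, and 413 and 132 with the 6 libraries up to 2 h. Spike-in scaling moved the median log2 fold change of all genes to 0.10, against -0.02 with TMM. DESeq2 called 181 higher and 53 lower genes, 161 and 51 of them shared. The replicate block was fitted on the 12 chase libraries, where 343 were higher and 93 lower with it and 258 and 64 without it. Same-numbered libraries of 1 h and 2 h passed the threshold of the pairing check (correlation 0.137, over 0.1). No call of a named gene changed with the block. Without 1 library the counts were 53 to 110 higher and 27 to 29 lower, and 3 to 5 immediate early genes were higher, in fits that take the lone library to vary like other groups. Labelled RNA was higher for 3 genes with spike-in totals, 2 with no filter, 6 with 4 libraries, 3 with the block, 2 in DESeq2 and 0 to 1 without 1 library. It was lower for 90 with spike-in totals, 983 with 4 libraries, 205 in DESeq2 and 187 to 240 without 1 library. Unlabelled RNA was higher for 1731 to 2073 genes without 1 library, and lower for 38 with spike-in totals, 297 with 4 libraries, 99 in DESeq2 and 55 to 131 without 1 library. The labelled share changed by -2.16 points without the 10 most abundant genes. Genes chosen in replicate 1 had medians in replicate 2 of -0.63 at 5 CPM, -0.92 at 20 CPM, -0.027 at 1.5-fold and -1.18 at 3-fold. Genes chosen in replicate 2 had medians in replicate 1 of -0.39 at 5 CPM, 0.10 at 1.5-fold, a reversal, and -1.06 at 3-fold. The cause of these shifts was not tested.

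With 2 libraries a time, a gene of few reads needs a large change to be called, as MEIS1 and CD69 show by resting on under 40 reads a library. A fit without 1 library leaves 1 library at that time, so a call can be lost while the log2 fold change stays. CEBPB stayed at 0.37 to 0.50 and TNFAIP3 at -0.56 to -0.51, while RPL35AP4 ranged from -1.84 to -0.05. Named rises lay between 0.21 and 3.64 and named falls between -4.04 and -0.05, so none changed sign. Of the 29 named falls 17, and of the 41 named rises 29, lost their call in at least 1 fit without 1 library.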

Other observations

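The gene list of mRNAs made in mitochondria, which encode subunits of the respiratory chain, held 12 members. Of these 12, MT-ND1 and MT-ND3 were lower at 2 h than at 1 h (16.7%, against 0.418% of all genes tested) and the median log2 fold change was -0.24. MT-ND1 was at 63.1 and 81.2 CPM at 2 h, against 110.0 and 130 CPM at 1 h (log2 fold change -0.74 ± 0.12, adjusted p = 0.000594), and was not called without replicate 2 of 1 h or replicate 1 of 2 h (adjusted p up to 0.0719). MT-ND3 was at 191 and 194 CPM at 2 h and at 237 and 244 CPM at 1 h (log2 fold change -0.33 ± 0.0642, adjusted p = 0.00521), and was called in none of the 4 fits without 1 library (adjusted p 0.0572 to 0.116). Labelled RNA was lower for 8 of the 12, against 4.76% of all genes tested. Together they summed to 13634 and 13878 CPM at 2 h and to 14130.0 and 15583 CPM at 1 h. Nuclear pseudogene copies of these genes, whose reads can be those of the mitochondrial originals, stood beside them and were picked with their values known. MTCO1P12 was at 1277 and 1286 CPM at 2 h and at 1729 and 1881 CPM at 1 h, and MTCO2P12 at 620.0 and 641 CPM at 2 h and at 825 and 890.0 CPM at 1 h.

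Further genes were picked with their values known. POLR2A, the largest subunit of RNA polymerase II, was at 81.7 and 83.8 CPM at 2 h and at 60.7 and 61.7 CPM at 1 h (log2 fold change 0.44 ± 0.0756, adjusted p = 0.00126), and climbed to 231 and 233 CPM at 12 h. CD69, a lymphocyte activation antigen, had 1 and 3 reads at 2 h and 27 and 37 reads at 1 h (adjusted p = 0.000628).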
